A study of Mus musculus with 4 samples.

Results

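The 36 genes described here encode proteins of the piRNA pathway and of the chromatin machinery that keeps retrotransposons silent in the mouse male germ line. They were taken as a named list of genes, not by their H1t values, though earlier results of these data were known. All 36 were matched by symbol to protein-coding genes among the 21938 of the GENCODE annotation of GRCm38 on chromosomes 1 to 19, X and Y. In that list, 23 genes are piRNA factors, 8 are heterochromatin factors and 5 are factors of DNA methylation and other silencing. Of 48681 listed H1t peaks, 34 overlapped the bodies of these genes by at least 1 bp. H1t, the linker histone variant of spermatocytes and early spermatids, was immunoprecipitated with an antibody raised against it from testicular cells of C57BL6 mice at postnatal day 20, and the study asked where along the genome it sits. The data hold 2 H1t ChIP libraries and 2 libraries of input, chromatin sequenced without the antibody, from animals for which no mutation or treatment is given. The labels call the cells pachytene, the stage of meiosis at which homologous chromosomes are fully paired, while the protocol starts from testicular cells at an age at which the testis is rich in pachytene spermatocytes, and names no sorting step. Both ChIP libraries were pooled and called against both pooled input libraries, so each value below comes from the pool, has no spread between libraries and cannot be tested between them.

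PIWI proteins bind piRNAs, small RNAs of the germ line, and use them to find and cut retrotransposon transcripts in the nuage, the perinuclear granules of germ cells. In the fetal male germ line the same pathway directs DNA methylation to retrotransposon promoters, and methylation of lysine 9 of histone H3 with HP1 binding marks silent repeats in parallel. In pachytene spermatocytes most piRNAs instead come from long intergenic precursors, and the genes of this machinery are among those used by the meiotic germ line. The values below describe chromatin over the genes, not the proteins they encode.

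The strongest of the 34 peaks lay in the eleventh intron of Tdrd1. Its sequence is shown first because the entire peak lies in a tandem array of a short unit and variants of it. The 300 bases around its centre, chr19:56847883-56848182 on GRCm38, are printed 5′ to 3′ on the strand of the gene, with the 10 exact copies of the 18-base unit in capitals.
Tdrd1 intron 11: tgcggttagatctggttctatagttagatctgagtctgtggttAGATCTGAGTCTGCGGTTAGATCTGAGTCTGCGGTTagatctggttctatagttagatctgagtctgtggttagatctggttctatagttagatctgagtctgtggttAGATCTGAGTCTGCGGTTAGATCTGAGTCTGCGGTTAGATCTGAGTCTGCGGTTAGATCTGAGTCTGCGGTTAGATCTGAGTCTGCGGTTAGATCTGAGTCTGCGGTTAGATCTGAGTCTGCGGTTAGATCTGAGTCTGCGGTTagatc
The other stretches carry in capitals the bases that the genome assembly masks as repeats, and all run 5′ to 3′ on the strand of their gene. They are the centres of the strongest peaks of the heterochromatin factors, in Ehmt1 (chr2:24909614-24909913), and of the remaining silencing factors, in Morc1 (chr16:48433910-48434209).
Ehmt1 intron 1: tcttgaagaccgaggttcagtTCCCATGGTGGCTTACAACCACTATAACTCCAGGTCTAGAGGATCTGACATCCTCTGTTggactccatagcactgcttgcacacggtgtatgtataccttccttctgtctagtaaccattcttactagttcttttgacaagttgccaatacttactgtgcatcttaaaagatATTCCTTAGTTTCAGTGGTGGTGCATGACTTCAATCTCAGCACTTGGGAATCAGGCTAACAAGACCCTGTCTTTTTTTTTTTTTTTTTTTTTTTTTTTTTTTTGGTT
Morc1 intron 1: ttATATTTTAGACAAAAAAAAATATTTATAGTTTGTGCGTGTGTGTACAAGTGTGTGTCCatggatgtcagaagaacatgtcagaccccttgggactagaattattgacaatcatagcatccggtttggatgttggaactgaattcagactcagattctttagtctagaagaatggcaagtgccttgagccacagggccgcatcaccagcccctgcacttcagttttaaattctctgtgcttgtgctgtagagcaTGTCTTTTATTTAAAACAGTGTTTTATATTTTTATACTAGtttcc
In the first, 166 of 300 bases were masked, and in the second 98 of 300. Next come the peaks that lay within 1 kb of a start site of their own gene, in Mov10l1 (chr15:89022915-89023214), in Morc1 (chr16:48594198-48594497) and in Rnf17 (chr14:56508887-56509159, the complete peak).
Mov10l1 intron 19: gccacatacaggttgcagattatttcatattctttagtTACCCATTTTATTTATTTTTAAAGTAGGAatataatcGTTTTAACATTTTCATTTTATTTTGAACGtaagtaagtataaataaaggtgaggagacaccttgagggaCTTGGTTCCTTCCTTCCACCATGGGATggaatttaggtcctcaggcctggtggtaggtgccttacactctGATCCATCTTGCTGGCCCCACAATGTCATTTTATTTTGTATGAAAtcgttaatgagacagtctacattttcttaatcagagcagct
Morc1 intron 20: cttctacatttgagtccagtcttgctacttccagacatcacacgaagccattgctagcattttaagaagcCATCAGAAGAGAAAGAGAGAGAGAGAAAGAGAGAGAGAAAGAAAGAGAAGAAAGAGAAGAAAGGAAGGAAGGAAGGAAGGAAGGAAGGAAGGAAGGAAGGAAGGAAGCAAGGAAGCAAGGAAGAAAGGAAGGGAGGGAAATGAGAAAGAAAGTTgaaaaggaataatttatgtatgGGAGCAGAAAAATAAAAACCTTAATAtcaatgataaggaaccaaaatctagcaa
Rnf17 intron 30: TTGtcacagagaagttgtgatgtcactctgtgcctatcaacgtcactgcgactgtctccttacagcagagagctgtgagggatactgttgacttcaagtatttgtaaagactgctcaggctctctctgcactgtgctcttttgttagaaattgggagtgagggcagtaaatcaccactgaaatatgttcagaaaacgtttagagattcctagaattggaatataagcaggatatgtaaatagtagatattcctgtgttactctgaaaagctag
The Morc1 stretch held 180 masked bases, much of it purine-rich simple repeat, the Mov10l1 stretch 130 and the Rnf17 peak 3. The last is the complete peak of Asz1 (chr6:18070657-18070897, 241 bases), which held 178 masked bases and had the second highest fold.
Asz1 intron 10: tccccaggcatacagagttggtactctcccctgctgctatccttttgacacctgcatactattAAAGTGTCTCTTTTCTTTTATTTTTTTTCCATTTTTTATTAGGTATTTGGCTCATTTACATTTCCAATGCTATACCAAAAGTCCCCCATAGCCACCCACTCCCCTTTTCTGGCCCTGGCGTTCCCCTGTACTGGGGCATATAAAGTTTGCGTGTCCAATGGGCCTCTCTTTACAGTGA

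The pooled ChIP held 39221290 fragments after filtering and the pooled input 30377916, and a region entered the list at an unadjusted p of 0.05. Each peak has a pileup, the number of ChIP fragments stacked over it. Its fold is the pileup plus 1 over the local background plus 1. The local background is what the input predicts there, or a genome-wide value of 4.95 fragments where that is higher. At 25 of the 34 peaks it lay within 2% of the genome-wide value, so their folds compare the ChIP with a nearly constant level. Over all 48681 peaks the median fold was 1.73 and 3.64% reached a fold of 2. A q, the p as adjusted by the peak caller for multiple testing, of at most 0.05 was given to 124. The peaks of the 36 genes were of the same low height. Their median fold was 1.74 (range 1.66 to 2.74), their median pileup 9.41 fragments (9 to 17.8) and their median width 679 bp (241 to 2218). Of the 34, 4 (11.8%) had an unadjusted p of at most 0.01, compared with 10.8% of the 19420 peaks in protein-coding genes, and 0 had a q of at most 0.05.

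H1t peaks lay in 17 of the 36 genes (47.2%). Over all protein-coding genes 35.1% held at least 1 peak. To allow for length, protein-coding genes of 0.5 to 2 times the length of each gene on its own chromosome, called like-length genes below, were counted too, and would give 17.5 genes (48.7%). Counted per length, the 34 peaks in 1733 kb came to 0.0196 per kb, or 1.96 per 100 kb (95% exact Poisson interval 1.36 to 2.74), where the density of the like-length genes would give 33.5 peaks (1.93 per 100 kb). The ratio of the 2 counts was 1.01 (0.702 to 1.42). The 100 kb on either side of the genes held 1.90 peaks per 100 kb (1.60 to 2.25), so the density in the bodies was 1.03 times that of their surroundings (0.686 to 1.51). Neither departure from 1 was larger than its counting error. Intervals here and below cover counting error only and treat the peaks of 1 gene as independent.

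The genes with a peak were mostly the long ones. Of the 17 genes over 40 kb, 14 held a peak, and of the 19 of 40 kb or less, 3 did, a division chosen after values were seen. Like-length genes differed with length too. The share of them with a peak ran from 50.2% to 94.9% for the genes over 40 kb. For the shorter genes it ran from 5.02% to 52.0%. The genes with a peak had a median length of 58.1 kb and those without 20.9 kb. By count, 8 genes held 2 or more peaks, 9 held 1 and 19 held 0. In all, 11 had more peaks than the mean of their like-length genes while 25 had fewer. A gene with 0 peaks always falls below such a mean. The same split was not counted over like-length genes, so it cannot be read as a lack of peaks.

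**Figure D1:**
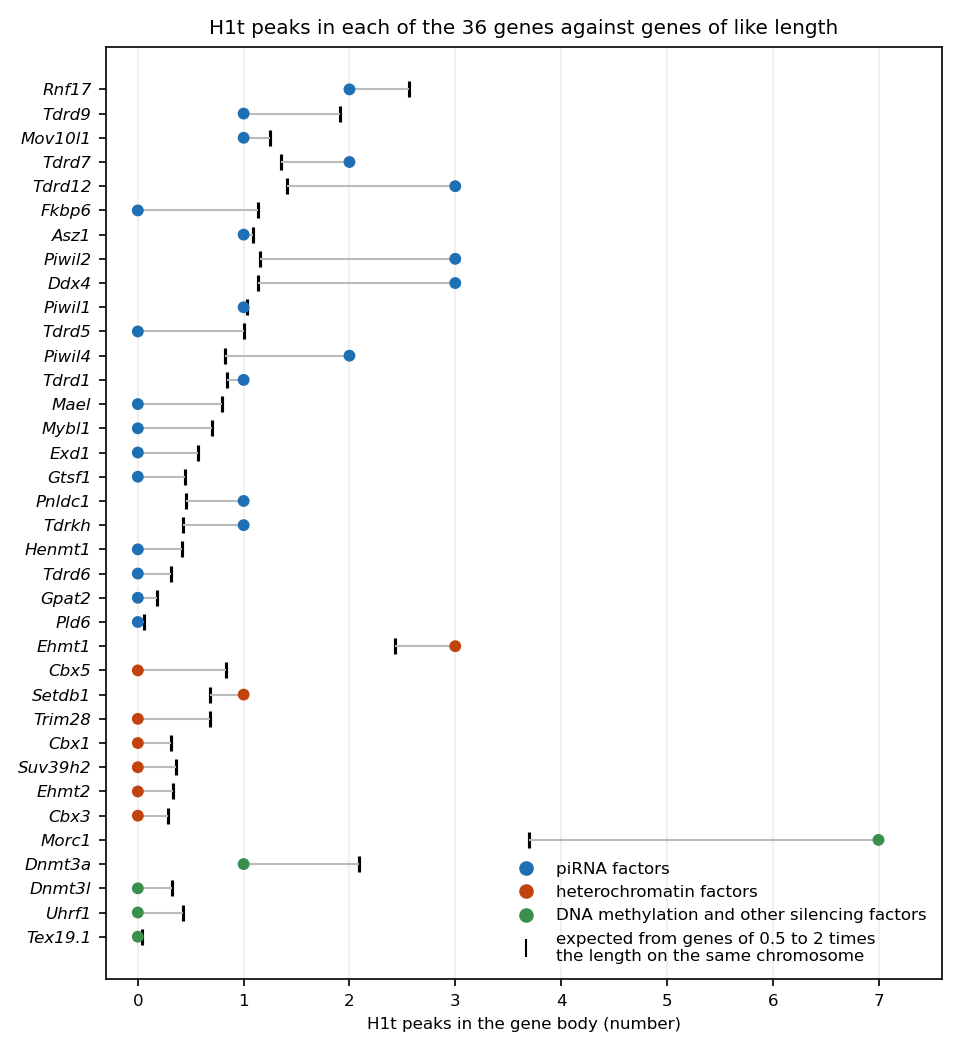
Number of H1t peaks in the body of each of the 36 genes (points, coloured by class, longest gene first within a class) with the number that protein-coding genes of 0.5 to 2 times its length on the same chromosome would give (black ticks). Morc1 with 7 peaks stands furthest to the right of its tick at 3.70, and most of the genes at 0 have ticks below 1.

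The piRNA factors had 22 peaks in 1070 kb, 0.0206 per kb or 2.06 per 100 kb (1.29 to 3.11), and 13 of 23 genes (56.5%) held at least 1. Their like-length genes would give 21.1 peaks and 11.8 genes, a ratio of peaks of 1.04 (0.655 to 1.58). The heterochromatin factors had 4 peaks in 311 kb, 0.0129 per kb or 1.29 per 100 kb (0.350 to 3.29), in 2 of 8 genes (25%), where their like-length genes would give 5.91 peaks and 3.36 genes, a ratio of peaks of 0.677 (0.184 to 1.73). The density of the piRNA factors was 1.60 times that of the heterochromatin factors, with an exact conditional interval of 0.543 to 6.39 that includes 1. The factors of DNA methylation and other silencing had 8 peaks in 352 kb, 0.0227 per kb or 2.27 per 100 kb (0.981 to 4.48), in 2 of 5 genes. Their like-length genes would give 6.58 peaks and 2.39 genes. Of those 8 peaks, 7 lay in Morc1, and without it 1 peak in 152 kb remained, a density of 0.656 per 100 kb (0.0166 to 3.65). Without Morc1 the other 35 genes held 27 peaks, 0.905 times the number from their like-length genes (0.596 to 1.32). The order of the 3 classes was therefore not separated by these counts, and that of the smallest class turned on Morc1.

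**Figure D2:**
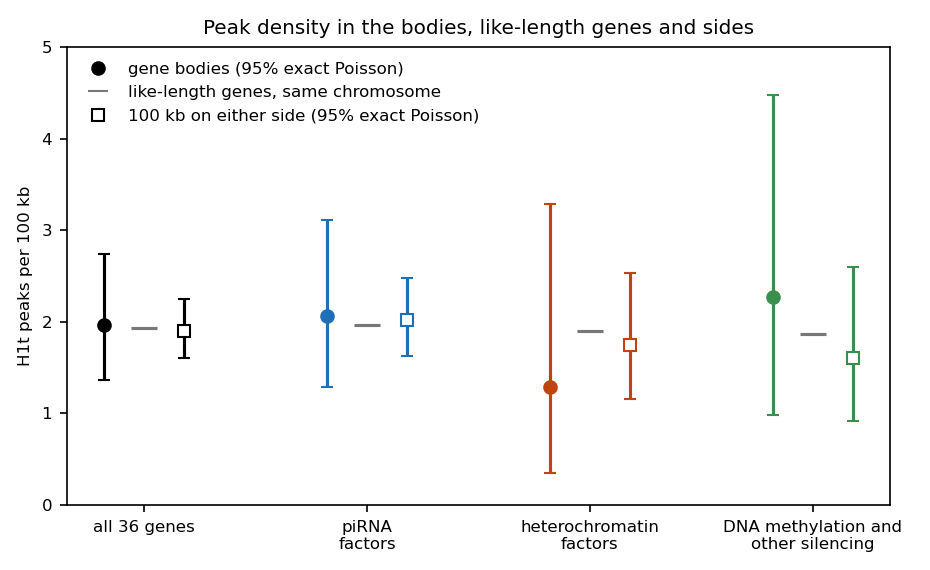
H1t peaks per 100 kb in the gene bodies (filled circles), at the density of the like-length genes (grey dashes) and in the 100 kb on either side of the genes (open squares), for all 36 genes and the 3 classes. Bars are 95% exact Poisson intervals, and in each class the bar of the bodies spans both the dash and the square.

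All 3 PIWI genes held peaks, 6 in total in 154 kb (3.89 per 100 kb, 1.43 to 8.46), where like-length genes would give 3.01. Of the like-length genes, 61.1% for Piwil1, 67.3% for Piwil2 and 54.4% for Piwil4 held at least 1 peak. Piwil2 encodes MILI, the PIWI protein present from the fetal germ line to round spermatids. It spans chr14:70372477-70429383 and carried 3 peaks in 56.9 kb against 1.15 from like-length genes, of which 23 of 220 (10.5%) held as many. The tallest was in intron 6 of 22, 9.23 kb from the start of the gene, with a fold of 1.91, a pileup of 10.3 and a caller p of 0.00915. The other two, in introns 4 and 20, both had a fold of 1.68 and the lowest pileup in the list, 9 fragments, and the one in intron 4 also covered Gm22725, an annotated snoRNA gene. Piwil4, for MIWI2, the nuclear PIWI protein of fetal male germ cells, held 2 peaks in 44.5 kb, in introns 7 and 4 of 18, at folds of 1.70 and 1.67. As many were found in 84 of its 419 like-length genes (20.0%). Piwil1, for MIWI, which binds the piRNAs of pachytene cells and spermatids, held 1 peak of fold 1.67 in intron 3 of its 21, at 69.5% of a gene body that GENCODE draws over 53.0 kb and RefSeq over 19.4 kb. The peak lies in both models and covers 2 exons for 196 bases, 1.53 kb from the nearest start site of the gene. The like-length genes of Piwil1 would give 1.03 peaks.

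The 8 Tudor genes encode proteins that dock on methylated arginines of PIWI proteins and build the nuage, and 6 of them held 10 peaks in 486 kb, against 9.81 from like-length genes (2.06 per 100 kb, 0.986 to 3.78). Tdrd1, a scaffold of the nuage that binds MILI, held a single peak in 43.8 kb (chr19:56826209-56870012), 21.8 kb from its start. It had the highest fold of all 34, 2.74, with a pileup of 17.8 fragments over a local background of 5.87, and ranked 36 by fold among the 48681 listed peaks. Its unadjusted p was 1.08e-05 and its q 0.0527, just above 0.05. The peak, chr19:56847671-56848396, lies entirely in a tandem array of 926 bases (chr19:56847511-56848436) in which the 18-base unit agatctgagtctgcggtt and variants of it repeat 51.4 times. Within the array 86.7% of bases matched the base 18 positions on, the peak itself held 17 exact copies of the unit, and 0% of the array is masked as repeat in the assembly. The local background of 5.87 fragments exceeded the genome-wide value of 4.95, and how reads from such an array were placed was not tested.

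Tdrd12, a Tudor protein with a helicase domain that is needed for secondary piRNAs, held 3 peaks in 68.6 kb against 1.41 from like-length genes, 47 of whose 318 (14.8%) held as many. Its highest peak, in intron 24 of 29, had a fold of 1.89 and a p of 0.00979 and was 56.3% masked, whereas those in introns 9 and 4 had folds of 1.77 and 1.78 and under 4% masked bases (3.16% and 3.34%). Tdrd7, a component of the chromatoid body of spermatids, held 2 in 69.4 kb, in introns 1 and 6 of 16, at folds of 1.69 and 1.71. Rnf17, a Tudor protein that limits piRNA amplification in meiotic cells, held 2 in 122 kb, under the 2.56 of its like-length genes. Its intron 10 peak had a fold of 1.80 and was the most repeat-rich of all 34, with 88.1% masked, and its intron 30 peak had a fold of 1.76 and lay 0.124 kb from an internal start site of Rnf17. Tdrd9, the partner of MIWI2 with a helicase domain, held 1 peak of fold 1.73 in intron 1 of 35 in 97.3 kb, where 1.91 would come from like-length genes, and its sides of 100 kb held 0. Tdrkh, the mitochondrial Tudor protein that presents PIWI proteins for trimming, held 1 peak in 21.4 kb, of fold 1.79, which covered 549 exonic bases. No peak overlapped Tdrd5 or Tdrd6, the latter a chromatoid body protein of spermatids. Their nearest peaks were 6.69 kb upstream and 36.5 kb downstream, and like-length genes would give 1 and 0.315. The Tudor genes thus held a number of peaks close to that of their like-length genes, spread from 0 to 3 a gene.

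Both helicase genes held peaks, 4 in 126 kb against 2.39 from like-length genes, of which 65.4% for Ddx4 and 64.0% for Mov10l1 held at least 1. Ddx4, the mouse Vasa homologue and a defining protein of the germ line, had 3 peaks in 54.1 kb (chr13:112598333-112652475), 5.54 per 100 kb (1.14 to 16.2), where like-length genes would give 1.14 and 33 of 231 (14.3%) held as many. These lay in introns 5, 17 and 18 of 21, at folds of 1.78, 1.79 and 1.73. Mov10l1, the helicase that feeds piRNA precursors into processing, had 1 peak of fold 1.68 in 72.2 kb, and 64.0% of its like-length genes held as many. It sat in intron 19 of 26, 0.232 kb from the start site of a shorter transcript and 40.2 kb from the start of the gene.

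The 4 biogenesis enzymes, which cut, trim and methylate piRNAs, are short genes with 57.0 kb in all, and held 1 peak against 1.1 from like-length genes. It was in Pnldc1, the trimming exonuclease, with a fold of 1.68, and was the only one of the 34 with its centre in an exon, exon 4, 3.70 kb from the start. Pld6, the endonuclease of the mitochondrial surface, Henmt1, the methyltransferase, and Gpat2, a mitochondrial acyltransferase that binds MILI, had 0 peaks. Their nearest peaks lay 53.7, 17.1 and 109 kb upstream, so no peak came within 100 kb of Gpat2.

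Among the 5 nuage factors, 1 peak was found in 213 kb, where like-length genes would give 4.04 (0.469 per 100 kb, 0.0119 to 2.61), the lowest density of a piRNA subgroup with a peak. It was in Asz1, which anchors the nuage to mitochondria. The Asz1 peak had a fold of 2.03, a pileup of 13.1 over a local background of 5.95 and a p of 0.00277, and 73.9% of it was masked. Fkbp6, a co-chaperone of PIWI loading, had 0 peaks in 58.3 kb although 64.6% of its like-length genes held at least 1, and its nearest peak was 27.0 kb upstream. For Mael, a nuage protein, Exd1, a partner of Tdrd12, and Gtsf1, a zinc finger partner of PIWI proteins, the nearest peaks were 11.9 kb upstream, 11.2 kb downstream and 0.360 kb downstream. Gtsf1 had 8 peaks in its 2 sides of 100 kb and 0 in its 28.1 kb body, which was 61.3% masked, the highest share of masked bases among the 36 gene bodies. Mybl1, the transcription factor A-MYB that switches on pachytene piRNA precursors, had 0 peaks in 32.8 kb and its nearest 24.2 kb downstream.

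The heterochromatin factors with peaks were both H3K9 methyltransferases, 2 of 4, with 4 peaks in 198 kb against 3.8 from like-length genes. Ehmt1, whose product GLP places mono- and dimethyl marks with G9a, held 3 in 130 kb (chr2:24789928-24919614), where 90 of its 253 like-length genes (35.6%) held as many. The peak in intron 1 had a fold of 1.80, was the widest of the 34 at 2218 bp and was 54.8% masked, and those in introns 9 and 18 had folds of 1.70 and 1.75. Setdb1, the trimethylating enzyme recruited through Trim28, had 1 peak of fold 1.66, the lowest of the 34, in intron 14 of 21, with 68.4% masked. Suv39h2, the testis-enriched trimethylating enzyme, and Ehmt2, for G9a, had 0, and their nearest peaks were 18.9 kb downstream and 36.4 kb upstream. The HP1 genes Cbx1, Cbx3 and Cbx5, for the proteins that bind methylated lysine 9, had 0 peaks in 81.1 kb, which allows up to 4.55 per 100 kb, and like-length genes would give 1.43. Cbx1 had a peak 1.69 kb upstream, while those nearest to Cbx3 and Cbx5 were 16.4 and 45.0 kb upstream. Trim28, the corepressor that KRAB zinc finger proteins recruit to retrotransposons, had 0 peaks, the nearest 8.11 kb upstream, against 0.680 from like-length genes.

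Morc1, a nuclear ATPase that represses retrotransposons in the fetal male germ line, held the most peaks of the 36 genes, 7 in 200 kb (chr16:48431237-48630900), or 3.51 per 100 kb (1.41 to 7.22). Like-length genes would give 3.70, and 5 of 78 (6.41%) held 7 or more, up to 10. Its sides of 100 kb held 2 peaks, 1 per 100 kb. The peaks were spread along the gene, in introns 1, 2, 8, 14, 17 and, with 2 of them, 20 of its 26, and none covered an exon. Their folds ran from 1.68 to 1.79 and their pileups from 9 to 10.3, close to those of the other genes. Per length Morc1 lay below Ddx4, Piwil2, Tdrkh, Pnldc1, Piwil4 and Tdrd12, and its interval includes the 1.85 per 100 kb of its like-length genes. The first peak in intron 20 lay 0.0120 kb from the start site of a short transcript. Dnmt3a, the de novo methyltransferase, held 1 peak of fold 1.75 in intron 1 of 22, in 108 kb, where like-length genes would give 2.09. Dnmt3l, its catalytically inactive cofactor, Uhrf1, which brings maintenance methylation to replicated DNA, and Tex19.1, a germ-line repressor of retrotransposons, had 0. Their nearest peaks were all downstream, at 2.39, 166 and 9.88 kb, so Uhrf1 and Gpat2 were the 2 genes with no peak within 100 kb.

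**Figure D3:**
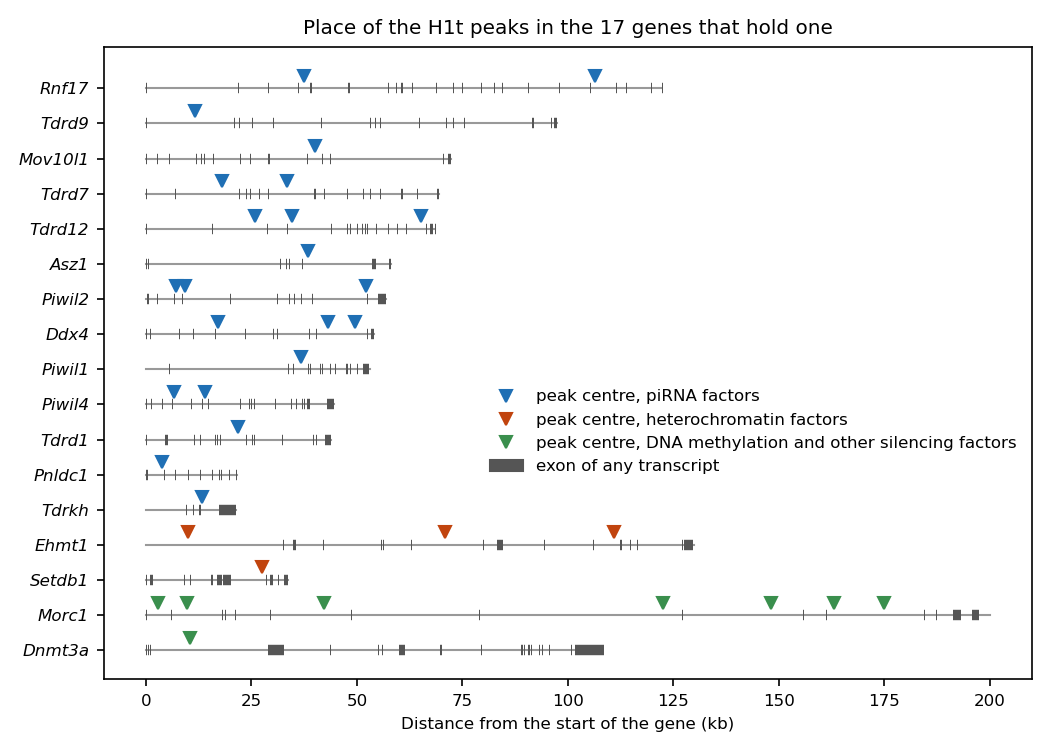
Place of the 34 peak centres (triangles, coloured by class) in the 17 genes that hold one, as the distance in kb from the start of the gene in the direction of transcription. Thin bars are exons of any transcript of the gene, and nearly all triangles stand between them, from the first intron to the last ones of the gene.

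The peaks were intronic and showed no crowding at gene starts. Their centres fell in introns in 33 of 34 cases and in an exon in 1, and 27 peaks overlapped no exon of any transcript. Exons made up 10.2% of the gene bodies and 4.17% of the bases under the peaks. Of the 34 centres, 10, 7, 8 and 9 lay in the successive 25% portions of the body, from start to end. A peak within 1 kb of the start of the gene was found for 0 of the 36 genes, where 2.96% of all protein-coding genes had one, a share that would give about 1 gene of 36. The 3 peaks within 1 kb of any start site were those of Mov10l1, Morc1 and Rnf17, all at internal start sites of shorter transcripts. Widening each gene by 10 kb on either side added peaks for 6 of the 19 genes without one and left 13 with none.

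Repeat-masked sequence made up 29.6% of the bases under the 34 peaks and 31.5% of the gene bodies, so the peaks were about as rich in repeats as the genes around them. The share was 26.6% under all peaks in protein-coding genes and 33.6% under all 48681 peaks. Masked sequence took up 50% or more of 7 of the 34 peaks (20.6%), compared with 15.4% in protein-coding genes. No masked base was held by 2 peaks (5.88%), in Tdrd1 and Tdrd7, compared with 9.73% of peaks in protein-coding genes. GC content was 44.0% under the peaks and 43.7% over the bodies. For 20 of the 34 peaks, no 25-base word was found in any other listed peak on either strand, simple repeats left out. Another 9 peaks in 7 genes held a word that occurred in at least 50 listed peaks. The same shares over all listed peaks were not counted, so neither number can be read as particular to these genes. The word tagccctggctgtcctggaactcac of the Morc1 peak in intron 17 was found in 608 of 48681 peaks, at 16.6 copies per Mb under the listed peaks and 20.0 per Mb in the genome. The word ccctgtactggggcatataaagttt of the Asz1 peak was found in 353, at 9.62 per Mb under the peaks and 15.6 per Mb in the genome. Of the 9 words, 7 were less dense under the peaks than in the genome, these 2 among them, and those of Rnf17 (2.07 against 1.11 per Mb) and of the Piwil2 peak in intron 6 (1.58 against 1.35) were denser. The part of such words in the calling of these peaks was not tested.

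**Figure D4:**
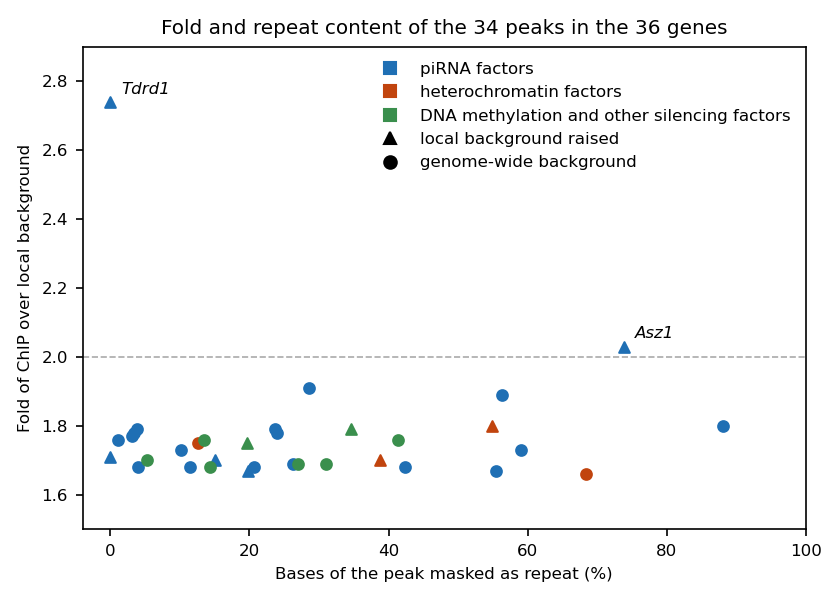
Fold of ChIP over the local background against the share of bases masked as repeat for each of the 34 peaks, coloured by class, with triangles where the local background was over 2% above the genome-wide value. The 2 peaks above the dashed line at a fold of 2 are those of Tdrd1 (2.74, 0% masked) and Asz1 (2.03, 73.9% masked), both triangles, and the other 32 lie between 1.66 and 1.91.

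A fold of at least 2 was reached in 2 of the 36 genes, Tdrd1 and Asz1, whereas 2.55% of protein-coding genes held such a peak, which would give about 1 of 36. At 4 of the 34 peaks the unadjusted p was at most 0.01, those of Tdrd1, Asz1, Piwil2 and Tdrd12. All 4 lay in piRNA factors, the class that held 22 of the 34 peaks. The local background was raised at 9 of the 34 (26.5%), including both peaks of the highest fold, compared with 20.1% of peaks in protein-coding genes. At the other end, 6 of the 34 peaks had the minimum pileup of 9 fragments, compared with 4115 of 19420 peaks in protein-coding genes and 9674 of all 48681.

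Further genes of the same and related pathways, listed from background knowledge, held somewhat fewer peaks than their like-length genes, within counting error. Of 27 other genes listed for the piRNA pathway, some of them from other small RNA pathways, 24 were matched. Of these, 9 (37.5%) held 18 peaks in 1290 kb, 1.40 per 100 kb (0.827 to 2.21). That was 0.679 times the 26.5 of their like-length genes (0.402 to 1.07). The Tudor nuclease gene Snd1 had 8 of the 18 peaks in 460 kb, with a highest fold of 2.1, against 9.61 from like-length genes. The Tudor gene Tdrd3 and the Tudor-like gene Spin1 had 2 each. Of 29 other heterochromatin and retroelement silencing genes, 10 (34.5%) held 17 peaks in 1261 kb, 1.35 per 100 kb (0.786 to 2.16), 0.791 times the 21.5 of their like-length genes (0.461 to 1.27). In that list Pphln1 and Mphosph8, of the HUSH complex, had 3 and 2, and Uhrf2, Hells, Rif1 and Smchd1 had 2 each.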

How the data were processed

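H1t ChIP and input libraries (2 each) of P20 testicular cells were aligned by the authors with Bowtie2 to GRCm38.p5 after FastQC 0.11.5. Broad peaks were called with MACS 2.1.2 on pooled libraries (39221290 ChIP and 30377916 input fragments after filtering, 241 bp fragments, effective genome size 1.87e+09, unadjusted p cutoff 0.05). The deposited list gives per peak the signal as a pileup of fragments, the −log10 of the p-value and of the q-value, and the fold, the ratio of pileup to local background, all from the authors' peak caller. The list runs from number 310 to 48990, so 309 numbers are absent, and 0 columns of values per sample were left out. The local background was worked back from the deposited pileup and fold, and was called raised when over 2% above 4.95 fragments.

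Peaks were intersected (at least 1 bp) with GENCODE vM21 gene bodies on GRCm38.p6, whose primary chromosomes share coordinates with GRCm38.p5. Introns and exons are those of the longest coding transcript, and masked bases are the lower-case bases of the RefSeq genome sequence. Numbers from like-length genes are the summed peaks of those genes over their summed length, times the length of the gene, with the 36 genes left out. Intervals are exact Poisson, or exact conditional for ratios of densities, at 95%. The pooled list allows no test between libraries, and none was made. Scripts were tested on simulated data with Python 3.11.15, numpy 2.4.6, pandas 2.3.3, scipy 1.17.1, pysam 0.24.0 and matplotlib 3.10.9.

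The genes, classes and further lists were chosen with earlier results of these data known. All 36 genes are reported, with their peaks or the distance to the nearest peak, and further pathway genes are named where they held 2 or more peaks. Sequences are the strongest peak of each class and the peaks within 1 kb of an own start site. The Asz1 sequence, the tandem unit, the shared 25-base words, the 100 kb sides and the division at 40 kb were chosen after values were seen. Of the further genes listed for the piRNA pathway, 3 of 27 symbols had no match. Alternatives were peaks of fold at least 2, of p at most 0.01 or q at most 0.05, peaks merged within 3 kb, peak centres, bodies with 10 kb sides, RefSeq bodies, peaks at the genome-wide background, leaving out Morc1, other classes, and other sets of like-length genes.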

Additional observations from a re-analysis of the deposited data

How the results depend on the processing

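Of 86 values recomputed under 14 alternatives, 61 moved by less than their counting interval or 1.5 times and 25 by more, nearly all of these under stricter peak sets. At a fold of at least 2, 2 peaks in 2 genes remained (0.187 per 100 kb of piRNA factors, 0 of heterochromatin and 0 of DNA methylation and other silencing factors). The ratio to like-length genes was then 1.84 over all 36 genes (0.223 to 6.65), 2.85 for piRNA factors (0.345 to 10.3) and 0 for heterochromatin factors (0 to 17.3). At a p of at most 0.01, 4 peaks in 4 genes remained (0.374 per 100 kb of piRNA factors, 0 of heterochromatin and 0 of DNA methylation and other silencing factors). The ratio was then 1.22 over all 36 genes (0.333 to 3.13), 1.88 for piRNA factors (0.512 to 4.81) and 0 for heterochromatin factors (0 to 5.44). At both cutoffs each of these intervals includes 1, so none of these sets was separated from its like-length genes. The classes were not compared with each other at these cutoffs. At a q of at most 0.05, 0 peaks in 0 genes remained, so each density and each ratio was 0. The density of DNA methylation and other silencing factors fell to 0.656 per 100 kb without Morc1 and to 0.665 with Morc1 and Tex19.1 counted among the piRNA factors. The ratio of all 36 genes to their like-length genes ran from 0.905 without Morc1 to 1.05 with peaks merged within 3 kb over the alternatives that keep the full peak list or leave out Morc1. No paired analysis was possible because the libraries were pooled before peaks were called.

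The depth of 39221290 ChIP fragments put the minimum pileup of a listed peak at 9 fragments, and most of the 34 peaks stood within 1 fragment of it. Whether any of them recurs in both ChIP libraries was not tested, since only the pool is listed. The protocol describes no sorting for pachytene spermatocytes, and the share of other testicular cells in the chromatin was not tested.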

Other observations

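Gene spans differed between the GENCODE and RefSeq models for many of the 36 genes, and Trim28, Piwil1 and Henmt1 are given as examples. RefSeq draws Trim28 over 6.88 kb and GENCODE over 31.9 kb, and both held 0 peaks. Piwil1 spans 19.4 kb in RefSeq and 53.0 kb in GENCODE, with 1 peak in each, and Henmt1 spans 40.4 kb and 20.9 kb, with 0 in each. Over all 36 genes both annotations gave 34 peaks in 17 genes. With 10 kb added on either side, 45 peaks lay at 23 genes, among them the peak 0.360 kb beyond the end of Gtsf1 and the peak 1.69 kb before Cbx1.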
